A study of Mus musculus with 4 samples.

Results

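The genes described here encode subunits of potassium, calcium, sodium and transient receptor potential (TRP) channels. They were taken as every gene on the array whose single platform symbol begins with Kcn, Cacn, Scn and a digit, or Trpc, Trpm or Trpv and a digit. This gave 148 of the 19938 genes measured, 143 of them channel subunits. The other 5, Kcnd3os, Kcnmb4os1, Kcnmb4os2, Trpc5os and Trpc4ap, match by their letters only and are kept in all counts. Each gene was represented by its probe set with the highest mean over the arrays, and 7 of the 148 had more than 1 probe set. A further 13 RefSeq symbols of the same pattern were not analysed here.

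Ion channels set how potassium, calcium and sodium cross the cell membrane. In T cells, potassium leaving through voltage-gated and calcium-activated potassium channels keeps the membrane potential negative, which sustains calcium entry after antigen receptor signalling. The main calcium entry runs through the store-operated Orai channels, while TRP channels are mostly cation channels that pass several ions, and voltage-gated calcium and sodium channels are best known from nerve and muscle.

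The study profiled total RNA of spleen-derived cells of C57BL/6 mice on 4 single-channel Affymetrix arrays, with 2 arrays in each of 2 groups. The wild type group was CD4+ splenocytes of control mice, and the lymphoma group was CD4+ lymphoma cells of mice homozygous for a Tet2 gene trap, an insertion that interrupts the transcript of the DNA demethylation enzyme Tet2. In both groups red cells were lysed and CD4+ cells were held on magnetic columns by a biotinylated antibody. The labels number the samples 1 and 2 in each group and give no age or sex, nor the number of animals, so the p-values measure the spread between these samples, which may be technical. Tumour and genotype differ together, so their effects cannot be told apart. All comparisons are of lymphoma with wild type in limma, with Benjamini-Hochberg adjustment over the 19938 genes, and a gene is said to rise or fall when its adjusted p was under 0.05. Intensities are on the linear scale as deposited and are given for arrays 1 and 2 of a group in that order.

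The median intensity of an array lay between 130 and 142. Log2 values correlated across probe sets at 0.980 between the wild type arrays and 0.973 between the lymphoma arrays. Between arrays of different groups they correlated at 0.955 to 0.965. Tet2 itself read 980 and 1016 in wild type and 596 and 399 in lymphoma (log2 difference -1.03, SE 0.24, adjusted p = 0.077). Where the trap lies relative to its probes is not stated in the labels, so this is no check of the trap. Arrays with the same number held exactly the same value at 571 (number 1) and 498 (number 2) of 35556 probe sets, while the other combinations of arrays shared 0 or 1. How the values came to be shared was not determined here. Values are therefore given for each same-numbered pair too, and with the pair as a block in the fit. Of the 148 genes, 116 lay below the median level of all genes, and without detection calls it is unknown which of these were above background.

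Trpc1 rose, and the potassium channel genes Kcnj10, Kcnj16 and Kcna2, the calcium channel genes Cacna1h, Cacna1i and Cacnb1, and Trpm2 fell. Among the 148, 1 rose, 7 fell and 140 did not pass. The 8 called genes are 5.41% of the members, beside 4.27% of all genes called, a share near the background for both directions together. With 2 arrays a group, a gene that did not pass is not shown to be alike in both groups. Rises alone were 0.676% of the members, beside 1.82% of all genes, and falls alone were 4.73%, beside 2.46%. The intensities of the 2 groups did not overlap for 61 of the 148 genes, or 41.2%, beside 44.1% of all genes. The log2 difference was negative for 106 of the 148 (71.6%, against 56.2% of all genes), a share that was 58.8% after quantile normalization and 55.4% after subtraction of array medians (49.97% and 43.9% of all genes). Their median difference was -0.10, and that of all genes was -0.04.

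**Figure D1:**
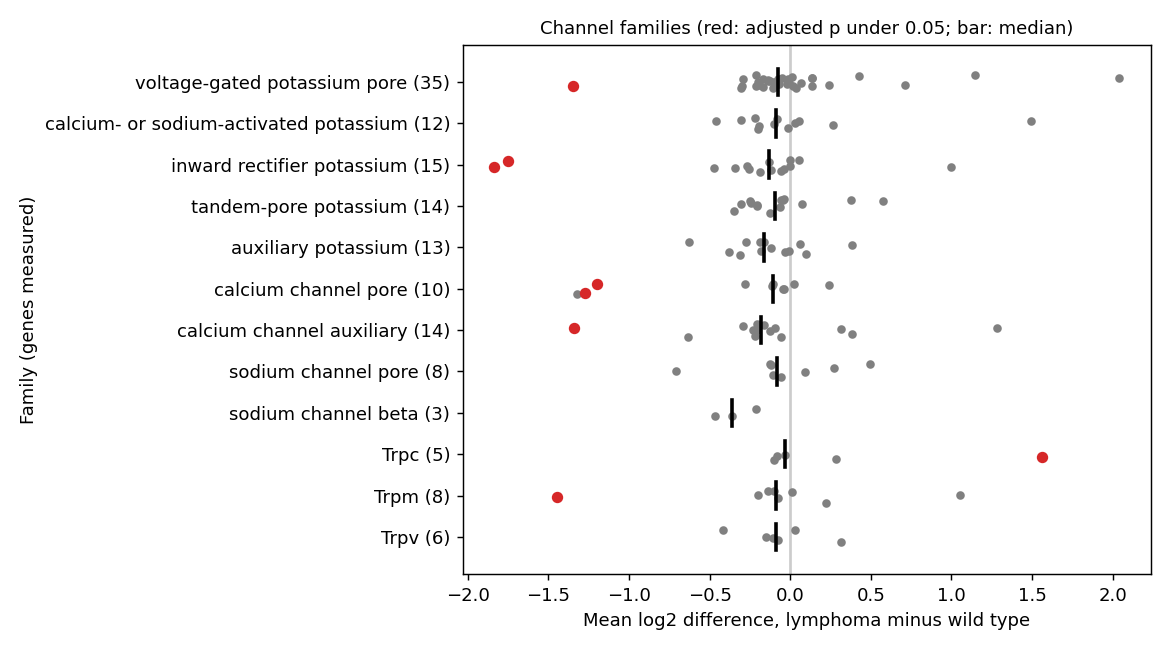
Mean log2 difference of lymphoma minus wild type (horizontal axis) for each channel gene, by family (vertical axis, number of genes measured in brackets). Red points had an adjusted p under 0.05 and black bars are medians, which lie close to 0 in most families. The 8 red points, 7 to the left and 1 to the right, come from 6 of the 12 families.

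Of 15 inward rectifiers, potassium channels that pass current more easily into the cell than out of it, 2 fell and none rose. Kcnj16 had intensities of 270.2 and 220.4 in wild type and 66.1 and 70.8 in lymphoma. Both lymphoma values were therefore far below both wild type values. It fell by 1.83 on the log2 scale (SE 0.18), or 3.57-fold (adjusted p = 0.0067), the largest fall among the 148 genes. Kcnj10, whose protein is known to assemble with that of Kcnj16 into a mixed channel, read 374 and 337 in wild type and 116 and 96.4 in lymphoma. It fell by 1.75 (SE 0.19), or 3.36-fold (adjusted p = 0.0075). Kcnj2, next to Kcnj16 in the genome, did not follow it, and read 45.9 and 59.7 in wild type and 287 and 38.0 in lymphoma. Its single high value was on lymphoma array 1. The other 12 had log2 differences that did not pass, and the median of the family was -0.13.

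Among 35 pore subunits of voltage-gated potassium channels, which open on depolarisation, Kcna2 fell and none rose. Its intensities were 479 and 550.4 in wild type and 213 and 192 in lymphoma, without overlap. It fell by 1.34 (SE 0.19, 2.54-fold, adjusted p = 0.015). A second Kcna2 probe set, dimmer throughout, read 122 and 122 in wild type and 71.6 and 79.6 in lymphoma. Its log2 difference of -0.69 did not pass in limma with adjustment over all probe sets (adjusted p = 0.20). On that same basis the first probe set had an adjusted p of 0.049, just under the threshold. The family's median was -0.08.

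Voltage-gated calcium channels are built from a pore subunit of the Cacna1 group and auxiliary subunits. Of 10 pore subunits, 2 fell, both of the T type, which opens at small depolarisations. Cacna1h read 314 and 220.4 in wild type and 112 and 117 in lymphoma, and fell by 1.20 (SE 0.22, adjusted p = 0.038). Cacna1i read 356 and 253 in wild type and 143 and 108 in lymphoma, and fell by 1.27 (SE 0.25, adjusted p = 0.045). These 2 were the least firm of the 8 calls. With array medians subtracted their adjusted p was 0.053 and 0.052, and without a variance trend that of Cacna1i was 0.051. The third member of the T type, Cacna1g, had a log2 difference of -0.11 (adjusted p = 0.87). Of 14 auxiliary subunits, Cacnb1, a cytoplasmic beta subunit that brings the pore to the membrane, fell. Its values were 409 and 366 in wild type and 147 and 158 in lymphoma. It fell by 1.34 (SE 0.18, 2.53-fold, adjusted p = 0.013).

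The TRP genes held the single rise and 1 fall. Trpm2, a calcium-permeable channel opened by ADP-ribose and oxidative stress and well known in phagocytes, had values of 373 and 342 in wild type and 128 and 134 in lymphoma. Lymphoma lay below wild type on every array, and the gene fell by 1.45 (SE 0.17, 2.73-fold, adjusted p = 0.0099). Trpc1, a subunit of receptor-operated cation channels, read 150.2 and 121 in wild type and 372 and 428 in lymphoma. It rose by 1.56 (SE 0.20, 2.96-fold, adjusted p = 0.012). The other 4 Trpc genes, 7 Trpm genes and 6 Trpv genes did not pass.

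The other families had no call. The 12 calcium- or sodium-activated potassium channel genes had a median log2 difference of -0.09, the 14 tandem-pore potassium channels, which hold the resting potential, of -0.10, and the 13 auxiliary potassium channel subunits of -0.16. The 8 sodium channel pores had a median of -0.08. The 3 sodium channel beta subunits, which are also cell adhesion proteins, were all lower in lymphoma by the mean, with differences between -0.47 and -0.21 that did not pass.

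**Figure D2:**
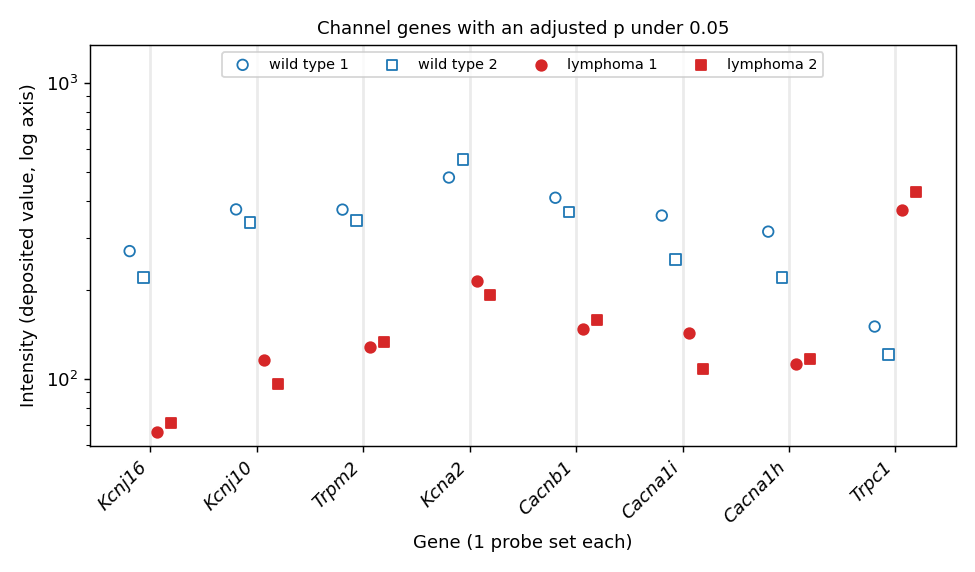
Intensity on a log axis for the 8 channel genes with an adjusted p under 0.05, with 1 point for each array (blue open, wild type; red filled, lymphoma; circles, number 1; squares, number 2). In each gene both lymphoma points lie on the same side of both wild type points, below them for 7 genes and above them for Trpc1.

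The Tet2 product acts on methylated cytosines, which lie mostly at CG, so the stretch of 250 bases before the RefSeq start (GRCm38.p6) of Trpc1, the gene that rose, is shown with each CG in capitals, 5′ to 3′ along the gene's strand. CG reads the same on both strands, and methylation was not measured here.
Trpc1, chr9:95750349-95750598, minus strand: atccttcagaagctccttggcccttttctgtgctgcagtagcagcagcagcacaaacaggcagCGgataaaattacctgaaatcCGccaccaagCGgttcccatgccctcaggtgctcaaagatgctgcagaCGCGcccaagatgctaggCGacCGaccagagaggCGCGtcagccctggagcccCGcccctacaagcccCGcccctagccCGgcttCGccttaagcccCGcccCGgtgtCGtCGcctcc
It holds 17 CG, a number reached by 23.5% of the 32851 RefSeq promoters of that length. The median over all promoters was 6, and over the 156 promoters of the 117 members in the table it was 7. Among the genes that fell, Kcnj10 has 17, Kcna2 has 18, Cacna1i has 16 and Trpm2 has 10. The 4 starts of Kcnj16 have between 1 and 7 and the 2 of Cacnb1 have 1 and 26, while none is listed for Cacna1h. The rise and the falls thus both include starts above the median.

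The log2 difference had the same sign in both same-numbered pairs for 91 of the 148 genes (61.5%, beside 62.7% of all genes). The 8 called genes are among them, as groups without overlap must be. Trpc1 was higher by 1.31 in pair 1 and by 1.82 in pair 2, Kcnj16 differed by -2.03 and -1.64, and Trpm2 by -1.54 and -1.36. With the pair as a block the same 8 genes (5.41%, beside 4.94% of all genes called) passed in limma, at adjusted p between 0.0091 (Kcnj10) and 0.039 (Cacna1h). The calls were lost on leaving out 1 wild type array, when the lymphoma pair alone sets the spread, while the differences stayed of similar size. Without wild type array 1 none of the 148 genes and none of all genes passed in limma, with 11 of the 148 and 2308 of all at an unadjusted p under 0.05. Without wild type array 2 the counts were again 0, with 11 and 2049 at an unadjusted p under 0.05. Without array 1 and without array 2 the log2 difference was -1.69 and -1.98 for Kcnj16, -1.68 and -1.82 for Kcnj10, -1.39 and -1.51 for Trpm2, and 1.72 and 1.41 for Trpc1. All 8 kept their direction, as groups without overlap must, and the smallest difference was that of Cacna1h, -0.94 without array 1. Without lymphoma array 1 all 8 passed, as did 14 of the 148 in all (4 rose and 10 fell, 8.69% of all genes called), and without lymphoma array 2 all 8 and 19 in all did (11 rose and 8 fell, 9.29%). In each such fit the lone array of a group is assumed to vary like the 2 of the other. The counts without a lymphoma array include the probe set annotated Kcnma1, whose annotation, described below, does not bear out its symbol.

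Markers of B cells and of myeloid cells were lower in lymphoma too. Of 9 measured B cell markers 8 fell, and their summed intensity was 20316 and 13203 in wild type against 3029 and 2761 in lymphoma. Of 10 macrophage and monocyte markers 7 fell (11514 and 11476 against 3143 and 4528), of 8 dendritic cell markers 6 fell (5382 and 4508 against 1059 and 1071), and of 5 plasma cell markers 2 fell (11306 and 6989 against 3114 and 3594). None of the 7 T cell markers passed, with sums of 23971 and 23716 in wild type and 27488 and 27423 in lymphoma. Markers of CD8 T cells, natural killer cells, erythroid cells, platelets, stroma, and neurons and muscle had no call, and of 8 neutrophil markers Ngp rose. The lowest marker reading was 13.1, for a natural killer cell marker, and without detection calls it is unknown which markers were above background. In RNA of a whole sample, fewer cells of a type and less RNA per cell cannot be told apart, and the part of these cells in the 7 falls was not tested.

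The 2 lymphoma arrays disagreed with each other for 12 of the 148 genes, or 8.11%, at more than 2-fold, beside 3.91% of all genes. At more than 4-fold it was 5 genes (3.38%, beside 0.868%). The wild type arrays were over 2-fold apart for 0 of the 148, beside 1.08% of all genes. Of the 12 genes, 10 were higher on lymphoma array 1 and 2 on lymphoma array 2, whereas of all genes so far apart 56.2% were higher on lymphoma array 1. A mean over such a pair describes neither array, so these genes are given array by array. The counts of 12, 5 and 10 include the probe set annotated Kcnma1, whose annotation, described below, does not bear out its symbol. By the other probe set of that symbol the lymphoma arrays read 34.7 and 58.5, less than 2-fold apart.

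The widest gap of all 19938 genes was that of the probe set annotated Kcnma1, the pore of the large-conductance calcium- and voltage-activated potassium channel. It read 712 and 1026 in wild type, 10706 on lymphoma array 1 and 51.9 on lymphoma array 2. The lymphoma arrays were thus 206-fold apart, the wild type arrays 1.44-fold. Within the pairs it was 15.0-fold higher in lymphoma in pair 1 and 19.8-fold lower in pair 2, and the mean log2 difference was -0.20 (SE 2.19, adjusted p = 0.99). With lymphoma array 2 alone standing for its group the difference was -4.04, and with lymphoma array 1 alone it was 3.65. Neither of these fits holds a spread between lymphoma arrays.

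The annotation of this probe set does not bear out its symbol. It lists 4 sequence records, none of them a RefSeq transcript, and all 10 of its nearest named neighbours in the platform's numbering are genes of chromosome 8, Fanca and Dbndd1 beside it. The RefSeq table places Kcnma1 on chromosome 14. The second probe set annotated Kcnma1 lists 17 RefSeq transcripts of the gene and is numbered among genes of chromosome 14, next to Dlg5. It read 37.0 and 52.1 in wild type and 34.7 and 58.5 in lymphoma, a log2 difference of 0.04 (adjusted p = 0.98), and was low on all 4. The large values are therefore given for the probe set and not for the Kcnma1 gene, and what it measures was not determined here. Among the 148 probe sets used, it was the only one with fewer than 5 of its 10 neighbours on its gene's chromosome, while 143 listed a RefSeq record of their gene.

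**Figure D3:**
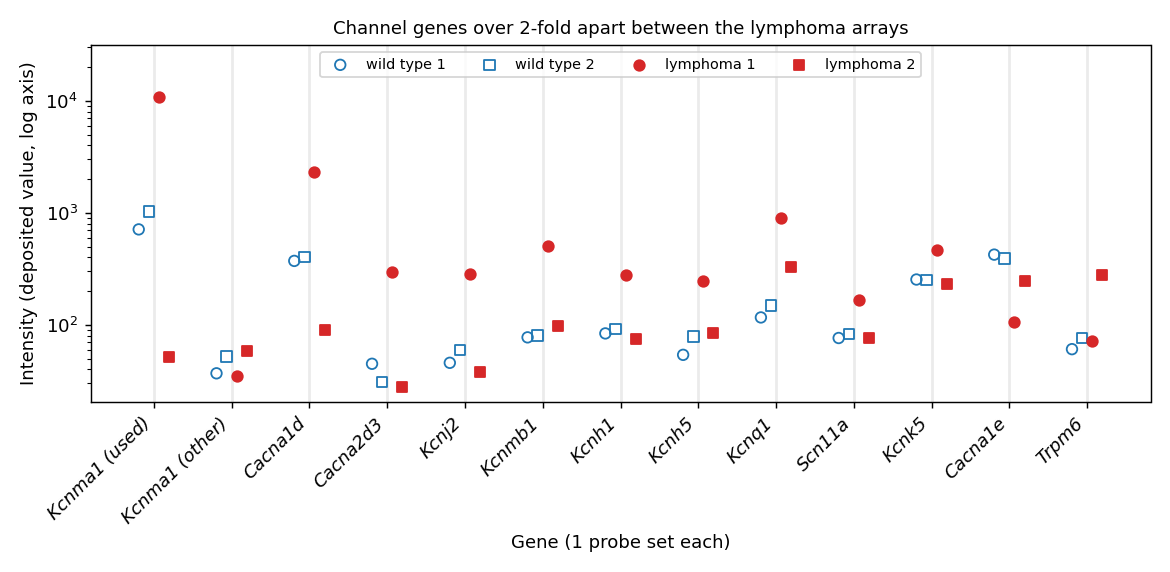
Intensity on a log axis for the 12 channel genes whose lymphoma arrays were more than 2-fold apart, ordered by that gap, with 1 point for each array (blue open, wild type; red filled, lymphoma; circles, number 1; squares, number 2). Both Kcnma1 probe sets are shown, and only the one used here spans 51.9 to 10706. That probe set is counted among the 12, though its annotation does not bear out its symbol. In 10 of the 12 genes the red circle lies above the red square.

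Cacna1d, the pore of an L type calcium channel, showed the next widest gap of the channel genes and the eighth widest of all genes. It read 372 and 403 in wild type, 2298 on lymphoma array 1 and 90.9 on lymphoma array 2. The lymphoma arrays were 25.3-fold apart and the wild type arrays 1.08-fold. In pair 1 the gene was 6.17-fold higher in lymphoma and in pair 2 it was 4.43-fold lower, so that the mean log2 difference was 0.24 (SE 1.33, adjusted p = 0.97). Its probe set lists RefSeq transcripts of the gene and is numbered among genes of chromosome 14.

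High readings on lymphoma array 1 alone were found for both auxiliary and pore subunits. Cacna2d3, an extracellular calcium channel subunit of the alpha2delta type, read 44.96 and 30.9 in wild type, 296 on lymphoma array 1 and 27.7 on lymphoma array 2. Kcnmb1, the beta subunit that tunes the calcium sensitivity of the large-conductance channel, read 77.4 and 80.4 in wild type, 505 on lymphoma array 1 and 97.3 on lymphoma array 2. On lymphoma array 2 both were near the wild type readings. Kcnh1 read 83.9 and 92.3 against 278 and 75.0, and Kcnh5 read 54.0 and 78.5 against 246 and 84.2, both pores of the ether-a-go-go group. Smaller gaps were those of the tandem-pore potassium channel Kcnk5 (254 and 252 against 465 and 231) and of the sodium channel pore Scn11a (76.4 and 82.6 against 165 and 75.9). None of these differences passed with all 4 arrays.

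The starts of Cacna1d and of Kcnmb1, both read high on lymphoma array 1, are shown in the same way as that of Trpc1, since Cacna1d has a CG-rich and a CG-poor start and Kcnmb1 a CG-poor one.
Cacna1d, downstream start, chr14:30353487-30353736, minus strand: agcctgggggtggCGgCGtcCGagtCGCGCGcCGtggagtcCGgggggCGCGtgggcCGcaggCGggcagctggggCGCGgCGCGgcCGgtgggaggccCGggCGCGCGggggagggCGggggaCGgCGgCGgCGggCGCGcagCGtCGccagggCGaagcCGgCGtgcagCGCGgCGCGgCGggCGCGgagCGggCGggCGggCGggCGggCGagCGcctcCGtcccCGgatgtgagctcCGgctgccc
Cacna1d, upstream start, chr14:30491157-30491406, minus strand: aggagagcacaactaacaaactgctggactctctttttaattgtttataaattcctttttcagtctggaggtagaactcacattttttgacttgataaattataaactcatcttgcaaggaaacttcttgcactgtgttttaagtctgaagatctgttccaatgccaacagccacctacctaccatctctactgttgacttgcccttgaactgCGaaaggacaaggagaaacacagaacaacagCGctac
Kcnmb1, chr11:33962763-33963012, plus strand: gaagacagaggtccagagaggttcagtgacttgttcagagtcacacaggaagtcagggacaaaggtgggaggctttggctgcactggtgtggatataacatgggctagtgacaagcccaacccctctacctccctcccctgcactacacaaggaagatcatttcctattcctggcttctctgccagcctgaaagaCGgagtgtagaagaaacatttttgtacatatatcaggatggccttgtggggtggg
The downstream Cacna1d start has 50 CG, a number reached by 0.0944% of all promoters, and the upstream start has 2, reached by 81.2%. Kcnmb1 has 1 CG (92.1%), Cacna2d3 has 30 (5.94%), Kcnj2 has 14 (29.4%) and Kcnh1 has 17 (23.5%). Kcnh5 has 16 (25.4%), Kcnk5 has 19 (19.7%) and Scn11a has 3 (71.0%). The genes read high on lymphoma array 1 alone thus range from CG-poor to CG-rich starts, and which start of Cacna1d was used cannot be read from 1 probe set.

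Kcnq1, the pore of a slow potassium channel, was higher on both lymphoma arrays but unequally. It read 117 and 149 in wild type, 896 on lymphoma array 1 and 329 on lymphoma array 2. Its mean log2 difference of 2.04 (SE 0.45) was the largest of the 148 genes and did not pass (adjusted p = 0.071). The log2 difference was 2.94 in pair 1 and 1.14 in pair 2, and with the pair as a block it had an adjusted p of 0.0712. The opposite inequality was seen for Trpm6, a magnesium-permeable channel joined to a kinase, with 60.7 and 76.5 in wild type, 71.5 on lymphoma array 1 and 280.3 on lymphoma array 2. Cacna1e, the pore of an R type calcium channel, was lower on both lymphoma arrays, at 107 and 249 against 424 and 390 (adjusted p = 0.15).

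**Figure D4:**
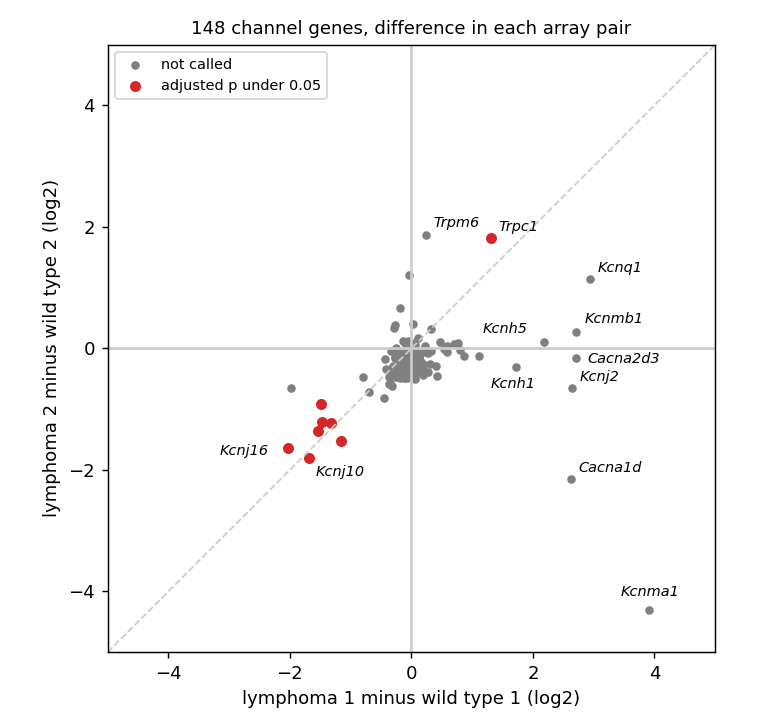
Log2 difference of lymphoma minus wild type in array pair 1 (horizontal axis) and pair 2 (vertical axis) for the 148 channel genes, with equality as a dashed line. Red points had an adjusted p under 0.05 and lie near the line, while Kcnma1 (the probe set of that symbol) and Cacna1d lie at the lower right, higher in pair 1 and lower in pair 2.

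Scn2a, the pore of a brain-type sodium channel, was covered by 14 probe sets, all listing a RefSeq record of the gene. The brightest, which represents the gene in all counts, read 102 and 114 in wild type, 154 on lymphoma array 1 and 109.5 on lymphoma array 2. In all 14 probe sets lymphoma array 1 had the highest of the 4 values. In 11 of them the lymphoma arrays were over 2-fold apart, with the widest gap at 51.2 on array 1 against 7.25 on array 2. The brightest of these 11 read 29.6 and 36.5 in wild type, 239.5 on lymphoma array 1 and 35.5 on lymphoma array 2. The probe sets share their 4 RNA samples and are no replicates. Most of their readings lay below 138, the median of lymphoma array 1 over all probe sets, and which were above background is unknown. The gene thus belongs with those high on lymphoma array 1 alone by most of its probe sets, but not by the one the rule selects.

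**Figure D5:**
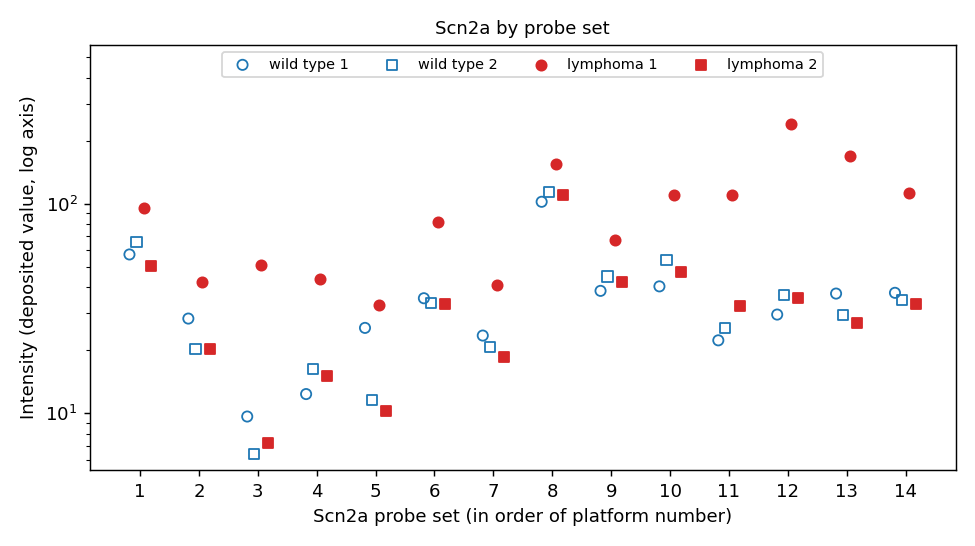
Intensity on a log axis for the 14 probe sets of Scn2a (horizontal axis, in order of platform number), with 1 point for each array (blue open, wild type; red filled, lymphoma; circles, number 1; squares, number 2). Lymphoma array 1 is the highest point in all 14, and in 11 it is over 2-fold above lymphoma array 2.

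Of 25 measured genes of a list of channels known from lymphocytes, Trpc1 rose, Kcna2, Trpm2, Cacna1h and Cacnb1 fell, and 20 did not pass. The 5 calls are 20.0% of the list, beside 4.27% of all genes, and the median log2 difference was -0.08, beside -0.04. The list was chosen with earlier results of these data known, so its share is no independent evidence. Kcna3, the voltage-gated potassium channel of effector memory T cells, read 1328 and 1435 in wild type and 1276 and 1569 in lymphoma, with overlapping ranges. Its log2 difference of 0.04 (SE 0.19, adjusted p = 0.97) was -0.01 after quantile normalization. Kcnn4, the calcium-activated potassium channel of activated T cells, read 2258 and 2061 in wild type and 2203 and 1892 in lymphoma, a difference of -0.08 (SE 0.17, adjusted p = 0.91). Both potassium channels thus overlapped between the groups.

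Kcnab2, a cytoplasmic beta subunit of voltage-gated potassium channels, read 1801 and 1620 in wild type and 2077 and 1612 in lymphoma (log2 difference 0.10, adjusted p = 0.90). Trpv2 read 1485 and 1158 in wild type and 1224 and 1468 in lymphoma (0.03, and -0.02 after quantile normalization, adjusted p = 0.98). The channel kinase Trpm7 read 758 and 772 in wild type and 863 and 610.3 in lymphoma (-0.08, and 0.0011 with array medians subtracted, adjusted p = 0.94). The calcium-activated sodium-conducting channel Trpm4 read 205 and 184 in wild type and 209.5 and 244 in lymphoma (0.22, adjusted p = 0.70). Of these 4, lymphoma lay wholly above wild type for Trpm4 only, and by little. Kcnq5 read 298 and 356 against 509 and 377 (0.43, adjusted p = 0.46), and Cacnb4 read 110.1 and 107 against 80.2 and 60.9 (-0.64, adjusted p = 0.17).

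The remaining genes of that list were dim on all arrays. Cacna1c, Cacna1f, Cacna1s, Kcne4, Kcnk9, Kcnrg, Trpc5, Trpv1, Trpv5 and Trpv6 had mean wild type intensities between 38.4 (Trpc5) and 103 (Cacna1s), and log2 differences between -0.38 (Kcnrg) and 0.07 (Kcnk9). Those of Cacna1c and Trpv5 were negative, and positive after quantile normalization or subtraction of array medians. None of these 10 passed.

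Outside that list, the genes with the smallest unadjusted p among those not called were, beside Kcnq1, Cacna1e, Kcnh5 and Kcnmb1, 6 genes with both lymphoma values below both wild type values. The sodium channel pore Scn3a read 56.7 and 57.2 in wild type and 35.0 and 34.9 in lymphoma (log2 difference -0.71, adjusted p = 0.090). Kcnip3, a calcium-binding partner of potassium channels that is also known as a transcriptional repressor, read 807 and 792 in wild type and 467 and 572 in lymphoma (-0.63, adjusted p = 0.16). Kcnj1, Scn2b, Kcnmb4 and Trpv4 had differences between -0.47 and -0.41, with adjusted p between 0.25 and 0.39. Of the 148 genes, 16 had an unadjusted p under 0.05, or 10.8%, beside 15.6% of all genes.

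Partners of these channels in calcium signalling and other ion channels and pumps held 4 further calls, in lists read beside the 2.46% of all genes that fell, the 1.82% that rose and their median of -0.04. Of 20 measured genes of store-operated entry and calcium stores, 1 fell and none rose, and the median was -0.09. The sodium-calcium exchanger Slc8a1 read 166 and 156 in wild type and 56.9 and 55.8 in lymphoma, and fell by 1.51 (SE 0.16, adjusted p = 0.0080). Orai1, the pore of the store-operated channel, read 636 and 605 in wild type and 778 and 799 in lymphoma (0.35, adjusted p = 0.43), and its sensor Stim1 593 and 651 against 630 and 794 (0.19, adjusted p = 0.79). Neither of the 2 passed.

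Of 17 genes of calcineurin and NFAT signalling, the calcium-dependent route from calcium entry to transcription, 2 fell and none rose, with a median of -0.02. Ppp3ca, a catalytic subunit of calcineurin, read 1189 and 999 in wild type and 424 and 301 in lymphoma, and fell by 1.61 (SE 0.23, 3.05-fold, adjusted p = 0.018). The other catalytic subunits did not follow it, Ppp3cb at 0.31 and Ppp3cc at -0.20 on the log2 scale, and neither passed. Camk4, a calmodulin-dependent kinase, read 463 and 673 in wild type and 190 and 137 in lymphoma, and fell by 1.79 (SE 0.26, adjusted p = 0.020). Of 34 other ion channels and pumps, Tmem38b, a potassium-passing channel of the endoplasmic reticulum, rose, from 264 and 307 to 577 and 643 (log2 difference 1.10, SE 0.19, adjusted p = 0.031), none fell, and the median was -0.14. That call was lost after quantile normalization (adjusted p = 0.053). Like every other call, those of these 4 genes were lost on leaving out wild type array 1 or wild type array 2.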

How the data were processed

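The authors' deposited table holds 1 intensity for each of 35556 probe sets and 4 arrays, linear in scale. It was made with Affymetrix Expression Console, per the submitters' processing notes (version, summarisation and normalization: not given in the sources used here). Depth has no counterpart on arrays, so their number limits the precision.

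Values were log2 transformed without pseudocount or filter. Of the probe sets, 21789 had 1 symbol, 1621 several and 12146 were not listed. The gene IDs of all 148 members matched RefSeq. The comparison of the groups used limma 3.58.1 under R 4.3.3 without covariates, with a mean-variance trend, two-sided tests, and 2 residual and 4.24 prior degrees of freedom. The fit was tested on simulated data. Figures used matplotlib 3.10.9.

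Named genes are those the question singled out (Kcnma1, Cacna1d), all calls, 25 measured genes of a lymphocyte channel list, the next 10 by unadjusted p and, chosen after their values were seen, those whose lymphoma arrays were over 2-fold apart, Scn2a, Cacna1g and the partner genes of calcium signalling. Members, lists and markers were chosen with earlier results of these data known. The alternatives were 12 planned settings, among them the replicate number as a block, and 1 added after seeing the data (the other Kcnma1 probe set).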

Additional observations from a re-analysis of the deposited data

How the results depend on the processing

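Number of arrays and dim signal limit these results. All 8 channel calls passed under quantile normalization, log2(value + 16), without the lowest tercile, with a robust trend, with averaged probe sets and with the replicate block; with array medians subtracted 6 did, and without a variance trend 7. The same-numbered arrays deviated together (r = 0.23 across genes) and shared values, and the replicate block changed no call on a channel gene named here. Leaving out each array in turn, the number of channel genes that rose ranged from 0 to 11 and that fell from 0 to 10. Both were 0 without either wild type array, when the lymphoma pair alone sets the spread, and 4 rose without lymphoma array 1 (10 fell) and 11 without lymphoma array 2 (8 fell). In that range the log2 difference ran from -4.04 to 3.65 for the probe set annotated Kcnma1 and from -2.09 to 2.57 for Cacna1d, by the construction of these means from 2 opposite arrays. The counts without lymphoma array 1 and without lymphoma array 2 include the probe set annotated Kcnma1. By its other probe set, Kcnma1 was at 0.037. Signs also changed on leaving out an array for Cacna2d3 (-0.43 to 2.99), Kcnj2 (-0.46 to 2.46), Kcnh1 (-0.23 to 1.66), Scn11a (-0.065 to 1.06), Kcnk5 (-0.13 to 0.88), Kcna3 (-0.11 to 0.18), Kcnab2 (-0.083 to 0.28), Kcnn4 (-0.19 to 0.030), Trpm7 (-0.33 to 0.17), Trpv2 (-0.15 to 0.21), Trpc5 (-0.27 to 0.076), Cacna1c (-0.17 to 0.082) and Cacna1f (-0.27 to 0.32). Under quantile normalization they changed for Kcna3 (-0.014), Trpv2 (-0.019), Trpv5 (0.015) and Cacna1c (0.036), and with array medians subtracted for Trpm7 (0.0011), Trpv5 (0.0028) and Cacna1c (0.030); these differences were near 0 and the cause was not tested.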

Other observations

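Probe sets that carry several symbols were left out of all counts. Of these, 4 hold a channel symbol. The one shared by Scn3a and Scn1a read 94.5 and 104 in wild type and 61.8 and 55.0 in lymphoma, lower in lymphoma like Scn3a alone. The one shared by Trpc2 and 2 neighbouring symbols read 186 and 207 in wild type and 156 and 144 in lymphoma. The remaining 2, shared by Scn2a, Scn9a and Scn3a or by Scn9a and Scn3a, read between 7.57 and 23.6 on every array.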
